A study of Homo sapiens with 9 samples.

Results

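The genes described here are 60 genes of mitosis and of the G2/M transition, chosen by name among the 33216 genes in the deposited tables. All 60 were found in each of the 9 libraries. They were sorted by role into 8 kinesins, 7 kinetochore and centromere genes, 11 checkpoint and mitotic kinase genes, 12 genes of the cyclin B-CDK1 and anaphase-promoting complex system, 9 spindle protein genes, 4 cytokinesis genes, 8 condensin and mitotic chromosome genes, and FOXM1. The rule used names only, but the list was drawn up with earlier results of these data known. All 60 also passed the filter on low values, in every group.

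The cells were CAL-27, an established line from a human squamous cell carcinoma of the tongue. RNA-seq was performed on 3 groups of 3 libraries, namely Control, cells given siRNA against LEF1 (siLEF1) and cells given siRNA against KDM4A (siKDM4A). The time between transfection and RNA collection is not given in the sources used here. LEF1 is a DNA-binding factor of the Wnt pathway, and KDM4A is a histone lysine demethylase. Whether the Control cells received a control siRNA, and which siRNA sequences went into these libraries, is not stated in the sources used here. Each group is therefore 1 line with 1 kind of knockdown, in which an effect of the target and an effect of the siRNA itself cannot be told apart. The study asked which genes LEF1 and KDM4A regulate together, so each knockdown was compared with Control, and the knockdowns were compared with each other.

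Mitotic genes are transcribed in waves, and their messages peak in G2 and early mitosis. In resting and early-cycle cells the DREAM complex, which contains the MuvB core, holds many of their promoters inactive through a short element called the cell cycle genes homology region (CHR). Later in the cycle MuvB joins B-MYB and then FOXM1, and NF-Y bound at its box helps to activate the same promoters. The products build the spindle, attach chromosomes to it at kinetochores, delay anaphase until attachment is complete, and divide the cell. In bulk RNA, more cells in G2 and mitosis and more of these messages per cell cannot be told apart. The study reported, from flow cytometry, that CAL-27 cells stalled in G1 after LEF1 or KDM4A knockdown. That was a separate assay, and its bearing on the values below was not tested.

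Libraries held 15255491 to 17118621 reads on genes, recovered from the steps between FPKM values, so the deepest was 1.12 times the shallowest. LEF1 lay at 0.997 to 1.27 FPKM in Control and 0.230 to 0.270 FPKM in siLEF1, and KDM4A at 16.5 to 16.6 FPKM in Control and 2.76 to 2.78 FPKM in siKDM4A. Each target was also below all Control libraries in the other knockdown. LEF1 was at 0.806 to 0.937 FPKM in siKDM4A, and KDM4A at 13.8 to 14.3 FPKM in siLEF1. All 8 squamous epithelial markers were detected in every group, and their summed level was 1184 to 1226 FPKM in Control, 1318 to 1333 FPKM in siLEF1 and 474.1 to 490.6 FPKM in siKDM4A. In siKDM4A, 6 of these 8 markers fell past both thresholds used below, KRT5 and KRT14 among them, whereas EPCAM rose past both and CDH1 rose by less than 1.5-fold (log2 fold changes of 0.60 and 0.13, limma adjusted p = 2.37e-05 and 0.00957). The 8 markers of immune, endothelial and fibroblast cells summed to 3.36 to 4.25 FPKM in Control, while siLEF1 libraries had 5.22 to 6.02 FPKM and siKDM4A libraries 3.21 to 3.40 FPKM, with PTPRC listed at 0 in all Control and siKDM4A libraries. COL1A2 and PDGFRB of that list were raised in siLEF1. Their part in the values of the mitotic genes was not tested.

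Promoters are shown first, because these genes share elements that the choice by name did not use. RefSeq promoter sequences (build GRCh38.p14, 250 bases before to 50 bases after the gene start) were matched for 51 of the 60 genes. Searched on both strands were the NF-Y box (CCAAT), the CHR in its G form (TTTGAA) and its A form (TTTAAA, which is its own reverse complement), the CDE (GGCGG) followed after 4 bases by a CHR, and the TCF/LEF core sites CTTTGAT and CTTTGAA, of which the second contains the G form of the CHR. The 150 bases before the start are printed below for 8 genes, 5′ to 3′ on the gene's strand. Windows overlapping annotated exons by more than 30 bases were not considered, which left 15 of 51, and the 8 were picked among them, after their values had been seen, to span genes with and without the elements and with different responses. Capitals mark the NF-Y box, the CHR and, in CKS1B, the CDE, on either strand.
CKS1B: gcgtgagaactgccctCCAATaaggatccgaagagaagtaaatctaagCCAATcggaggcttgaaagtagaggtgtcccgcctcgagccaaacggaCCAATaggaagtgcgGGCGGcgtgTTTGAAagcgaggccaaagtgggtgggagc
CKS2: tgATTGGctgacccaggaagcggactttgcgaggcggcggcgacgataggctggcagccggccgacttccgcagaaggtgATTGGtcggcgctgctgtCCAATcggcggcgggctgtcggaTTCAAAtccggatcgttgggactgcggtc
CDC20: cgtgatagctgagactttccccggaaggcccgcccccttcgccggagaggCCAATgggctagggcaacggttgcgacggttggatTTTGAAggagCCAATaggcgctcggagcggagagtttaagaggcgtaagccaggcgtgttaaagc
MKI67: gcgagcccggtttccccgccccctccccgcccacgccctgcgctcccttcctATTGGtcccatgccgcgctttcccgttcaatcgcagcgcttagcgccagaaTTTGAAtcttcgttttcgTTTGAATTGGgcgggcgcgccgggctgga
KIF11: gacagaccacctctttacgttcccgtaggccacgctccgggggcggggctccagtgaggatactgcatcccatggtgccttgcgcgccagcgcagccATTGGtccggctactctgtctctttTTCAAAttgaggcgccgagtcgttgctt
CENPF: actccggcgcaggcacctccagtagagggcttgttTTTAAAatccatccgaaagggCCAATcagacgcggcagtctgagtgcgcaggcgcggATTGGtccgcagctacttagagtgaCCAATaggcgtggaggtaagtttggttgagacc
TACC3: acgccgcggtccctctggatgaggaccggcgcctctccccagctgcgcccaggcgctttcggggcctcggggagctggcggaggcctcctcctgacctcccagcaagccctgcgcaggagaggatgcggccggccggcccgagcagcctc
CKAP2: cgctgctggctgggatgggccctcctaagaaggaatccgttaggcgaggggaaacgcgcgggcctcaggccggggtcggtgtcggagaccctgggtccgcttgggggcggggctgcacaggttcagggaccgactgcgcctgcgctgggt

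These windows lie at chr1:154974531-154974680 (CKS1B, plus strand), chr9:89311045-89311194 (CKS2, plus), chr1:43358831-43358980 (CDC20, plus), chr10:128126424-128126573 (MKI67, minus), chr10:92592980-92593129 (KIF11, plus), chr1:214603045-214603194 (CENPF, plus), chr4:1720481-1720630 (TACC3, plus) and chr13:52455838-52455987 (CKAP2, plus). In GENCODE release 29, no base of the CKS2, MKI67, KIF11, CENPF and TACC3 windows is exonic, and 28 bases of CKS1B, 26 of CDC20 and 16 of CKAP2 are. CKS1B holds NF-Y boxes with first bases at -134, -102 and -54 from the start, then the CDE and the CHR from -39 to -25. CKS2 holds NF-Y boxes at -148, -70 and -52 and a CHR at -29 on the opposite strand. KIF11 holds 1 NF-Y box at -53 and a CHR at -28, both on the opposite strand. MKI67 has CHRs at -47 and -29 and an NF-Y box at -24 that begins on the last base of the second CHR. No NF-Y box, CHR, CDE followed by a CHR or TCF/LEF core site occurs in the windows shown for TACC3 and CKAP2. These windows end at RefSeq starts that lie 859 bases before the GENCODE gene start of TACC3 and 559 bases inside the GENCODE gene of CKAP2, whereas for the other 6 genes the starts are 0 to 156 bases apart.

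Some genes have several RefSeq entries, and a gene was counted when any of them held the motif. An NF-Y box was present in 40 of the 51 genes (78.4%), against 42.5% of 11166 tested genes and 39.7% of 27305 genes with an entry. The G form of the CHR was present in 39 of 51 (76.5%), against 13.8% of tested genes and 18.2% of all genes. Either form of the CHR was found in 45 of 51 (88.2%), against 21.6% and 27.9%. The CDE with a CHR was found in 4 of 51 (7.84%), against 0.152% and 0.0952%. In contrast, the TCF/LEF core CTTTGAT was found in 1 of 51 (1.96%) and CTTTGAA in 2 of 51 (3.92%), against 2.10% and 4.02% of tested genes. In the lists given for comparison, the NF-Y box was found in 66.2% of 65 other mitotic genes and 61.9% of 42 genes of G1/S and replication. The G form of the CHR was found in 41.5% and 2.38% of them, and either form in 47.7% and 11.9%. CTTTGAA was found in 9.23% of the other mitotic genes and 0% of the G1/S and replication genes, and CTTTGAT in 0% of both. Other forms of a TCF/LEF site, and sites outside these windows, were not searched. A match is a description of letters, not a bound site.

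Within first RefSeq entries, the median first base was at -73 for the NF-Y box and -27 for the G form of the CHR. The order within a promoter varied, and in CDC20, MKI67 and CENPF a CHR stood upstream of an NF-Y box. In siLEF1, the 45 genes with either CHR had a median log2 fold change of 0.46 against Control, and the 6 genes without one had 0.66. In siKDM4A these medians were 0.12 and 0.39. The 40 genes with an NF-Y box and the 11 without one had medians of 0.46 and 0.48 in siLEF1, and 0.14 and -0.04 in siKDM4A. TACC3 and CKAP2 count as lacking both elements. The RefSeq starts used for them lie 859 and 559 bases from the GENCODE gene starts, so their windows may miss elements. These medians were not tested against each other.

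In Control cells the mitotic genes were abundant. Their mean level ran from 5.92 FPKM (CDC25C, the phosphatase that switches on CDK1) to 151.3 FPKM (CKS2, a small CDK-binding subunit), with a median of 24.7 FPKM, and their median percentile among 21263 genes with at least 0.1 FPKM was 91.1. FPKM is scaled to gene length, so levels of different genes can be set side by side. By role, the median Control level was lowest in kinetochore and centromere genes (11.3 FPKM, from SPC25 at 9.74 to CENPF at 21.8) and highest in genes of the cyclin B-CDK1 system (35.9 FPKM). A gene of the list had 249 to 14938 reads in a library. The median coefficient of variation between libraries of 1 group was 3.23%, and the highest was 11.7%.

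The list as a whole took a larger share of the reads in siLEF1. It drew 0.819% to 0.845% of reads in the Control libraries, whereas the siLEF1 libraries gave it 1.10% to 1.14% and the siKDM4A libraries 0.902% to 0.926%. The groups did not overlap. The median over the 60 genes of the difference from the Control mean, on the log2(FPKM + 0.1) scale, was 0.45 to 0.50 in the siLEF1 libraries, 0.15 to 0.19 in siKDM4A and -0.02 to 0.03 in Control.

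In siLEF1 against Control, 54 of the 60 mitotic genes rose and none fell at an adjusted p below 0.05 with limma, over 21831 genes tested. Of all genes tested, 15.7% rose and 16.9% fell by this rule. Only 12661 of the genes tested averaged 1 FPKM or more, whereas every mitotic gene did. Shares among genes of like level were not computed. When a fold change above 1.5 was also required, 18 mitotic genes rose, while 6.31% of all genes rose and 5.31% fell. The 18 included the kinesin KIF20A, the spindle genes HMMR and TACC3, the CDK1 phosphatase CDC25B, cyclins B2 and A2, the checkpoint kinase BUB1, and FOXM1. The median log2 fold change of the 60 genes was 0.47, against -0.01 for all genes, and 58 genes were higher and 2 lower than in Control. The other 36 risen genes lay below 1.5-fold. KIF11, PLK1, MAD2L1, SMC4, SMC2 and NCAPG did not pass the test. Leaving out 1 library at a time gave 15 to 19 genes past both thresholds, since AURKB, KIF14 and NUSAP1 then reached as low as 0.56, 0.56 and 0.58 and CKS2 and CDCA2 as high as 0.59 and 0.61. The rises of AURKA and TPX2 at any fold each held in only 7 of 15 alternative fits.

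In siKDM4A against Control, 30 mitotic genes rose and 5 fell at an adjusted p below 0.05 with limma, over 21253 genes tested. The corresponding shares of all genes were 14.7% and 18.3%. Only 4 genes rose by more than 1.5-fold and none fell by as much, against 4.23% and 7.80% of all genes. These 4 were BIRC5, CENPF, AURKB and TACC3. The median log2 fold change was 0.16, against -0.05 for all genes, with 43 genes higher and 17 lower. The 5 genes that fell were ANLN, CKAP2, PTTG1, KIF18A and TOP2A, each by less than 1.5-fold. Without Control replicate 2, TACC3 was at 0.58 and 3 genes were left past both thresholds. At any fold, the rises of AURKA, BUB1B, CCNB1, CDCA3 and KIF2C and the falls of KIF18A and TOP2A did not hold in every alternative fit. Some genes not called here passed in an alternative fit. CENPA stayed uncalled in 10 of 15, HJURP and NEK2 in 11, CDC25C, GTSE1 and KIF4A in 12, and CENPE, NUF2 and TTK in 14.

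Both comparisons used the same 3 Control libraries, so the knockdowns were also compared directly, without them. In siKDM4A against siLEF1, 44 of the 60 genes were lower and 3 were higher at an adjusted p below 0.05 with limma, over 21493 genes tested, where 20.1% of all genes were lower and 16.8% higher. Past a fold change of 1.5 as well, 8 genes were lower (KIF20A, CDC25B, CKAP2, ANLN, KIF4A, KIF14, NUF2 and HMMR) and none was higher, against 10.02% of all genes lower and 5.28% higher. At that stricter rule the share of mitotic genes, 8 of 60, was thus close to that of all genes. The 3 genes higher in siKDM4A than in siLEF1 were TPX2, MAD2L1 and HMGB2. The median log2 difference was -0.28, against -0.06 for all genes. Scaling the libraries to a common median ratio moved the median of all genes by under 0.1 on the log2 scale, and left 5 genes past both thresholds. Leaving out 1 library at a time gave 6 to 9, with HMMR reaching -0.55, NUF2 -0.56, KIF14 -0.58 and CDCA3 -0.61. At any fold, the calls of HMGB2, SMC4, UBE2C, TTK, CENPA, NCAPG, BUB1B, KIF2C and PRC1 did not hold in every alternative fit. Those of SMC4 and UBE2C held in only 6 and 8 of 15. Among genes not called, CKS2 and CDC25C stayed uncalled in 12 of 15, and BIRC5, CCNB1 and KIF11 in 14.

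**Figure D1:**
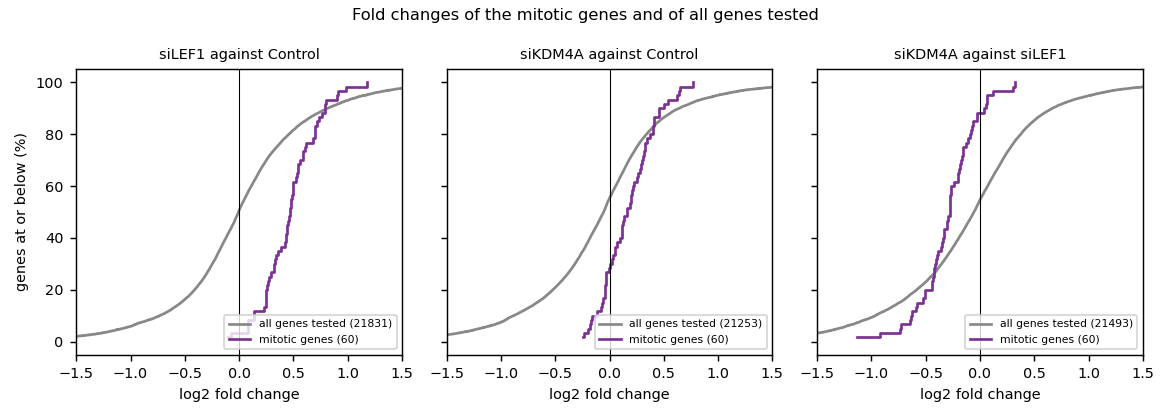
Cumulative share of genes (vertical axis, %) at or below each log2 fold change (horizontal axis, log2(FPKM + 0.1) scale) for the 60 mitotic genes and for all genes tested, in the 3 comparisons. The curve of the mitotic genes lies to the right of all genes in siLEF1 (medians 0.47 and -0.01), less so in siKDM4A (0.16 and -0.05), and to the left between the knockdowns (-0.28 and -0.06).

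**Figure D2:**
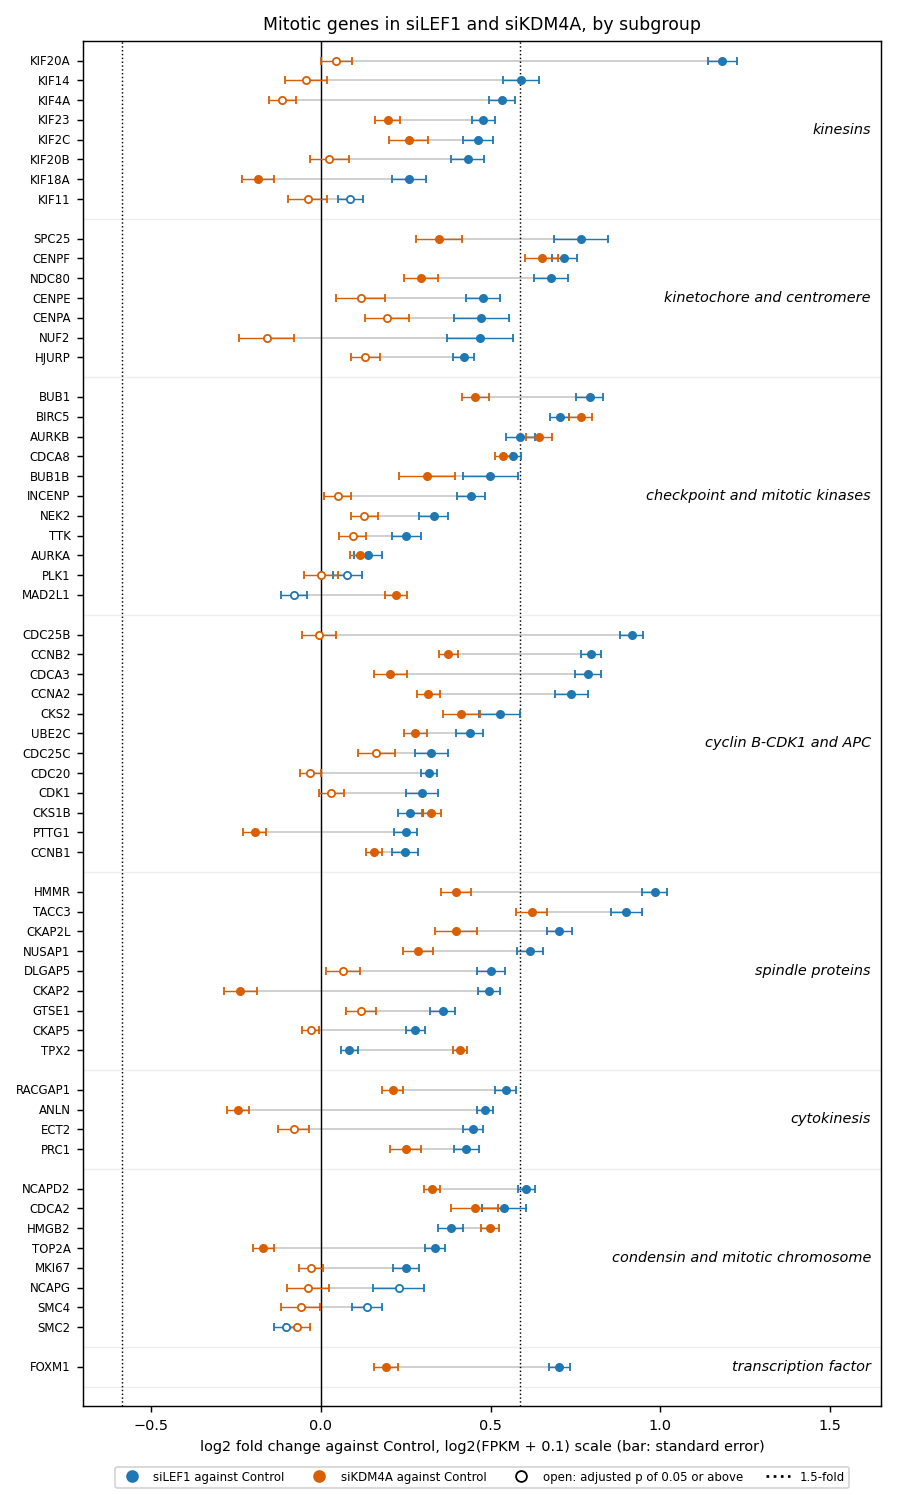
Log2 fold change against Control, with its standard error, of each of the 60 genes in siLEF1 and in siKDM4A, ordered within each role by the value in siLEF1. Filled points have an adjusted p below 0.05 and dotted lines mark 1.5-fold. KIF20A reaches 1.18 in siLEF1 and 0.05 in siKDM4A, whereas BIRC5, AURKB and CDCA8 lie at like values in both.

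Kinesins move chromosomes and spindle microtubules and carry regulators to the cell's midzone. In siLEF1, 7 of the 8 rose, with a median log2 fold change of 0.47. In siKDM4A 2 rose, 1 fell and 5 did not pass, with a median of -0.01. Between the knockdowns 7 of 8 were lower in siKDM4A.

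KIF20A, which brings the chromosomal passenger complex to the central spindle, was at 21.1, 19.1 and 19.4 FPKM in Control, 46.1, 44.9 and 44.5 FPKM in siLEF1 and 20.1, 20.5 and 20.9 FPKM in siKDM4A. Its 3 siLEF1 libraries stood above the other 6, and siKDM4A overlapped with Control. It rose by a log2 fold change of 1.18 ± 0.043 (SE) in siLEF1, a 2.27-fold rise and the largest of the 60 genes (limma, adjusted p = 7.74e-06). In siKDM4A its log2 fold change was 0.05 ± 0.045 (SE, adjusted p = 0.495), and the direct difference was -1.14 ± 0.028 (SE, adjusted p = 1.68e-06). Of its exonic bases, 3.34% are shared with BRD8 and 1.72% with CDC23 on the opposite strand. The libraries were made with a stranded kit, but whether the counting used strand is not given in the sources used here.

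KIF11, the motor that pushes spindle poles apart and the most abundant kinesin in Control, was at 32.7, 32.0 and 30.7 FPKM in Control, 34.8, 33.8 and 32.6 FPKM in siLEF1 and 28.4, 31.9 and 32.6 FPKM in siKDM4A. Control overlapped with each knockdown. Its log2 fold change was 0.09 ± 0.037 (SE) in siLEF1 and -0.04 ± 0.057 in siKDM4A, with adjusted p of 0.128 and 0.649 by limma. The chromokinesin KIF4A and KIF14, which acts in cytokinesis, rose in siLEF1 by 0.53 and 0.59 on the log2 scale, had -0.11 and -0.04 in siKDM4A, and were lower there than in siLEF1 by 1.57-fold and 1.55-fold. KIF18A, which damps chromosome oscillation, rose in siLEF1 by 0.26 (adjusted p = 0.00785) and fell in siKDM4A, at -0.18 (limma, adjusted p = 0.0237). KIF23, the kinesin subunit of centralspindlin, and KIF2C, a microtubule depolymerase at centromeres, rose in each knockdown, by 0.48 and 0.46 in siLEF1 and 0.20 and 0.26 in siKDM4A. KIF20B rose in siLEF1 by 0.43, had 0.02 in siKDM4A, which did not pass, and showed a direct difference of -0.41 that passed.

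Kinetochore and centromere genes encode the platform on each chromosome that microtubules attach to. All 7 rose in siLEF1, with a median of 0.48, and 3 of them by more than 1.5-fold. In siKDM4A 3 rose and 4 did not pass, with a median of 0.19, and 6 of 7 were lower in siKDM4A than in siLEF1.

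CENPF, a large protein that joins the outer kinetochore in G2 and the highest of this role in Control, was at 22.8, 21.5 and 21.2 FPKM in Control, 35.8, 36.9 and 35.05 FPKM in siLEF1 and 32.3, 35.1 and 35.6 FPKM in siKDM4A. Both knockdowns lay above all Control libraries and overlapped each other. The log2 fold changes were 0.72 ± 0.037 (SE, adjusted p = 2.63e-05) in siLEF1 and 0.65 ± 0.048 (SE, adjusted p = 1.22e-04) in siKDM4A by limma, and the direct difference of -0.07 had a 95% interval of -0.17 to 0.04. The subunits of the microtubule-binding NDC80 complex were graded. SPC25 rose by 0.77 in siLEF1 and 0.35 in siKDM4A, NDC80 by 0.68 and 0.30, and NUF2 by 0.47 in siLEF1 with -0.16 in siKDM4A, which did not pass. NUF2 had a direct difference of -0.63 ± 0.066 (SE), past both thresholds. CENPE, a kinetochore motor, CENPA, the centromeric histone H3 variant, and HJURP, its chaperone, rose by 0.48, 0.47 and 0.42 in siLEF1 and did not pass in siKDM4A, with 0.12, 0.19 and 0.13. CENPA shares 6.96% of its exonic bases on the same strand with SLC35F6, which had more reads (means of 1184 and 420 for SLC35F6 and CENPA).

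The checkpoint and kinase genes hold back anaphase and drive entry into mitosis. In siLEF1, 9 of 11 rose, with a median of 0.44. In siKDM4A 7 rose and 4 did not pass, with a median of 0.22. The median direct difference was -0.08, the nearest to 0 of all roles, with 5 genes lower in siKDM4A, 1 higher and 5 that did not pass.

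The chromosomal passenger complex corrects faulty attachments, and its kinase AURKB works with BIRC5 (survivin), CDCA8 (borealin) and INCENP. BIRC5 was at 34.7, 34.2 and 34.9 FPKM in Control, 58.1, 55.4 and 55.6 FPKM in siLEF1 and 58.8, 56.6 and 61.1 FPKM in siKDM4A. AURKB was at 24.1, 25.6 and 25.7 FPKM in Control, 38.2, 39.3 and 36.0 FPKM in siLEF1 and 39.4, 40.6 and 37.9 FPKM in siKDM4A. CDCA8 was at 33.2, 32.5 and 32.3 FPKM in Control, 48.9, 48.8 and 47.5 FPKM in siLEF1 and 47.4, 47.0 and 48.0 FPKM in siKDM4A. For each of these 3 genes every library of both knockdowns stood above every Control library, and the knockdowns overlapped. In siLEF1 the log2 fold changes were 0.70 ± 0.027, 0.59 ± 0.043 and 0.56 ± 0.024 (SE) for BIRC5, AURKB and CDCA8, with adjusted p of 9.37e-06, 1.12e-04 and 1.34e-05 by limma. In siKDM4A they were 0.76 ± 0.033, 0.64 ± 0.039 and 0.54 ± 0.025, with adjusted p of 1.74e-05, 5.70e-05 and 2.10e-05. None of the 3 passed the direct test, where the 95% intervals of the difference were -0.02 to 0.15, -0.05 to 0.16 and -0.08 to 0.03. INCENP, the scaffold of the same complex, rose by 0.44 ± 0.042 (SE) in siLEF1 but had 0.05 ± 0.04 in siKDM4A, and its direct difference of -0.39 passed (adjusted p = 7.71e-04).

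PLK1, a kinase of mitotic entry and exit, was at 25.8, 26.3 and 27.0 FPKM in Control, 26.8, 27.2 and 29.5 FPKM in siLEF1 and 28.4, 24.99 and 25.8 FPKM in siKDM4A, and AURKA, the kinase of spindle poles and the highest of this role in Control, was at 63.8, 63.3 and 60.3 FPKM in Control, 72.8, 67.3 and 66.6 FPKM in siLEF1 and 67.9, 67.3 and 67.8 FPKM in siKDM4A. PLK1 overlapped between all groups, whereas both knockdowns lay above Control for AURKA. The log2 fold changes of PLK1 were 0.08 ± 0.043 (SE) and 0.00 ± 0.051 in siLEF1 and siKDM4A, and neither passed. Those of AURKA, 0.14 and 0.12, passed with adjusted p of 0.0415 and 0.0203 by limma. They held in only 7 and 10 of 15 alternative fits. MAD2L1, the checkpoint protein that inhibits CDC20, was at 16.2, 15.6 and 15.6 FPKM in Control, 15.5, 15.04 and 14.4 FPKM in siLEF1 and 18.4, 18.8 and 18.2 FPKM in siKDM4A. Its siKDM4A libraries were above the other 6 and its siLEF1 libraries below all others. It rose by 0.22 ± 0.032 (SE, limma adjusted p = 0.00222) in siKDM4A, had -0.08 ± 0.039 (adjusted p = 0.176) in siLEF1, and was 1.23-fold higher in siKDM4A than in siLEF1 (adjusted p = 9.47e-04).

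Of the remaining checkpoint genes, BUB1, a kinetochore kinase, rose by 0.79 in siLEF1 and 0.46 in siKDM4A, and its paralog BUB1B by 0.50 and 0.31. Both were lower in siKDM4A than in siLEF1, by 1.26-fold and 1.14-fold. TTK, which starts checkpoint signalling, and NEK2, a centrosome kinase, rose in siLEF1 by 0.25 and 0.33 and did not pass in siKDM4A (0.09 and 0.13).

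The cyclin B-CDK1 system triggers mitosis, and the anaphase-promoting complex ends it by destroying cyclins and securin. All 12 genes rose in siLEF1, with a median of 0.38, and 4 of them by more than 1.5-fold. In siKDM4A 7 rose, 1 fell and 4 did not pass, with a median of 0.18. Between the knockdowns 8 were lower in siKDM4A and none higher.

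CDC25B, the phosphatase that starts CDK1 activation at the G2/M transition, was at 30.4, 28.4 and 28.9 FPKM in Control, 53.9, 55.4 and 56.1 FPKM in siLEF1 and 29.97, 27.2 and 30.2 FPKM in siKDM4A. The siLEF1 libraries formed a group of their own, and siKDM4A overlapped with Control. It rose by 0.92 ± 0.033 (SE) in siLEF1, that is 1.89-fold (limma, adjusted p = 7.99e-06), had -0.01 ± 0.05 in siKDM4A (adjusted p = 0.95), and differed directly by -0.92 ± 0.045 (adjusted p = 1.63e-05). Its paralog CDC25C had 0.32 in siLEF1, which passed, and 0.16 in siKDM4A, which did not. CDC25C shares 8.78% of its exonic bases with FAM53C on the opposite strand, which had more reads (means of 1066 and 328 for FAM53C and CDC25C).

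CCNB2, cyclin B2, was at 30.7, 31.8 and 31.8 FPKM in Control, 55.7, 55.3 and 53.0 FPKM in siLEF1 and 40.3, 41.6 and 40.4 FPKM in siKDM4A. The 3 groups were stepped without overlap, Control lowest and siLEF1 highest. The log2 fold changes of CCNB2 were 0.80 ± 0.03 (SE, adjusted p = 8.35e-06) in siLEF1 and 0.38 ± 0.029 (SE, adjusted p = 1.37e-04) in siKDM4A by limma, with a direct difference of -0.42 (adjusted p = 5.99e-05). CCNB1, cyclin B1, was at 99.4, 103.7 and 101.1 FPKM in Control, 127.3, 116.5 and 117.8 FPKM in siLEF1 and 113.2, 113.9 and 112.1 FPKM in siKDM4A. Its order of groups was the same, at smaller steps. It rose by 0.25 and 0.16, and the direct difference of -0.09 did not pass (adjusted p = 0.0936). CCNA2, the cyclin of S and G2 phase, rose by 0.74 and 0.32 and was 1.34-fold lower in siKDM4A than in siLEF1. It shares 9.08% of its exonic bases with EXOSC9 on the opposite strand.

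CDK1, the kinase itself, was at 34.8, 34.1 and 34.7 FPKM in Control, 45.7, 41.4 and 40.4 FPKM in siLEF1 and 33.7, 35.9 and 36.4 FPKM in siKDM4A. It was above the other 6 libraries in siLEF1, with overlap between siKDM4A and Control, and rose by 0.30 ± 0.047 (SE, limma adjusted p = 0.00332) in siLEF1 with 0.03 ± 0.036 in siKDM4A. CKS2 was at 164.1, 147.1 and 142.7 FPKM in Control, 223.4, 205.2 and 224.5 FPKM in siLEF1 and 194.7, 204.96 and 203.9 FPKM in siKDM4A. Every knockdown library stood above every Control library. It rose in both knockdowns, by 0.53 ± 0.06 and 0.41 ± 0.054 (SE, limma adjusted p = 7.87e-04 and 0.00137). The related subunit CKS1B, whose promoter with CDE and CHR is printed above, rose by 0.26 in siLEF1 and 0.32 in siKDM4A, with a direct difference of 0.06 and a 95% interval of -0.02 to 0.15.

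PTTG1, securin, which guards cohesin until anaphase, was at 34.0, 35.1 and 32.9 FPKM in Control, 41.6, 40.5 and 39.2 FPKM in siLEF1 and 29.2, 30.3 and 29.4 FPKM in siKDM4A. Its siLEF1 libraries were all above Control and its siKDM4A libraries all below. It rose by 0.25 ± 0.035 (SE, limma adjusted p = 0.00186) in siLEF1, fell in siKDM4A with a log2 fold change of -0.20 ± 0.033 (adjusted p = 0.00442), and differed directly by -0.44 (adjusted p = 7.35e-05). CDC20, the activator of the anaphase-promoting complex, rose by 0.32 in siLEF1, had -0.03 in siKDM4A and was 1.27-fold lower there than in siLEF1. UBE2C, the complex's ubiquitin-conjugating enzyme, rose by 0.44 and 0.28. CDCA3, which takes part in destroying the kinase WEE1, rose by 0.79 and 0.20, and with a direct difference of -0.58 it fell just short of the 1.5-fold limit that HMMR, at -0.59, just passed.

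Spindle proteins nucleate, bundle and stabilize microtubules. All 9 rose in siLEF1, with the highest median among the roles with several genes, 0.50, and 4 rose by more than 1.5-fold. In siKDM4A 5 rose, 1 fell and 3 did not pass, with a median of 0.29. All 9 differed between the knockdowns, 8 being lower and 1 higher in siKDM4A.

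HMMR, a hyaluronan receptor that also binds spindle microtubules, was at 11.4, 10.7 and 11.1 FPKM in Control, 22.3, 22.2 and 21.5 FPKM in siLEF1 and 14.0, 15.1 and 14.8 FPKM in siKDM4A. TACC3, which bundles kinetochore fibres with CKAP5 and clathrin, was at 12.1, 11.3 and 12.6 FPKM in Control, 22.3, 22.3 and 22.8 FPKM in siLEF1 and 18.6, 18.3 and 18.6 FPKM in siKDM4A. For both genes the 3 groups were stepped without overlap, with siLEF1 highest. HMMR rose by 0.98 ± 0.036 (SE, limma adjusted p = 7.99e-06) in siLEF1, a 1.98-fold rise, and by 0.40 ± 0.045 (adjusted p = 7.27e-04) in siKDM4A. TACC3 rose by 0.90 ± 0.045 (adjusted p = 2.35e-05) and 0.62 ± 0.046 (adjusted p = 1.24e-04), and was 1.21-fold lower in siKDM4A than in siLEF1.

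TPX2, which activates AURKA and seeds spindle microtubules, was at 77.4, 76.2 and 77.7 FPKM in Control, 82.0, 83.6 and 79.6 FPKM in siLEF1 and 101.6, 103.5 and 102.2 FPKM in siKDM4A. Unlike HMMR, it was highest in siKDM4A, with siLEF1 just above Control and no overlap between groups. It rose by 0.41 ± 0.021 (SE, limma adjusted p = 3.24e-05) in siKDM4A and by 0.08 ± 0.025 (adjusted p = 0.0438) in siLEF1, and was 1.25-fold higher in siKDM4A than in siLEF1 (adjusted p = 9.53e-05). The rise in siLEF1 held in only 7 of 15 alternative fits.

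CKAP2, a spindle pole protein, was at 35.5, 36.6 and 34.0 FPKM in Control, 50.2, 50.5 and 49.0 FPKM in siLEF1 and 28.3, 31.6 and 30.02 FPKM in siKDM4A. The siLEF1 libraries were above Control and the siKDM4A libraries below it, without overlap. It rose by 0.50 ± 0.033 (SE, limma adjusted p = 7.39e-05) in siLEF1, fell in siKDM4A with a log2 fold change of -0.24 ± 0.048 (adjusted p = 0.00906), and was 1.66-fold lower in siKDM4A than in siLEF1 (adjusted p = 3.20e-05). Its relative CKAP2L rose in each knockdown, by 0.70 and 0.40. NUSAP1, a microtubule-bundling protein, rose by 0.62 and 0.29, and 62.2% of its exonic bases are shared with a read-through gene of the same strand that is not among the genes analysed here. DLGAP5, GTSE1 and CKAP5, which act on spindle microtubules, rose in siLEF1 by 0.50, 0.36 and 0.28 and did not pass in siKDM4A.

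**Figure D3:**
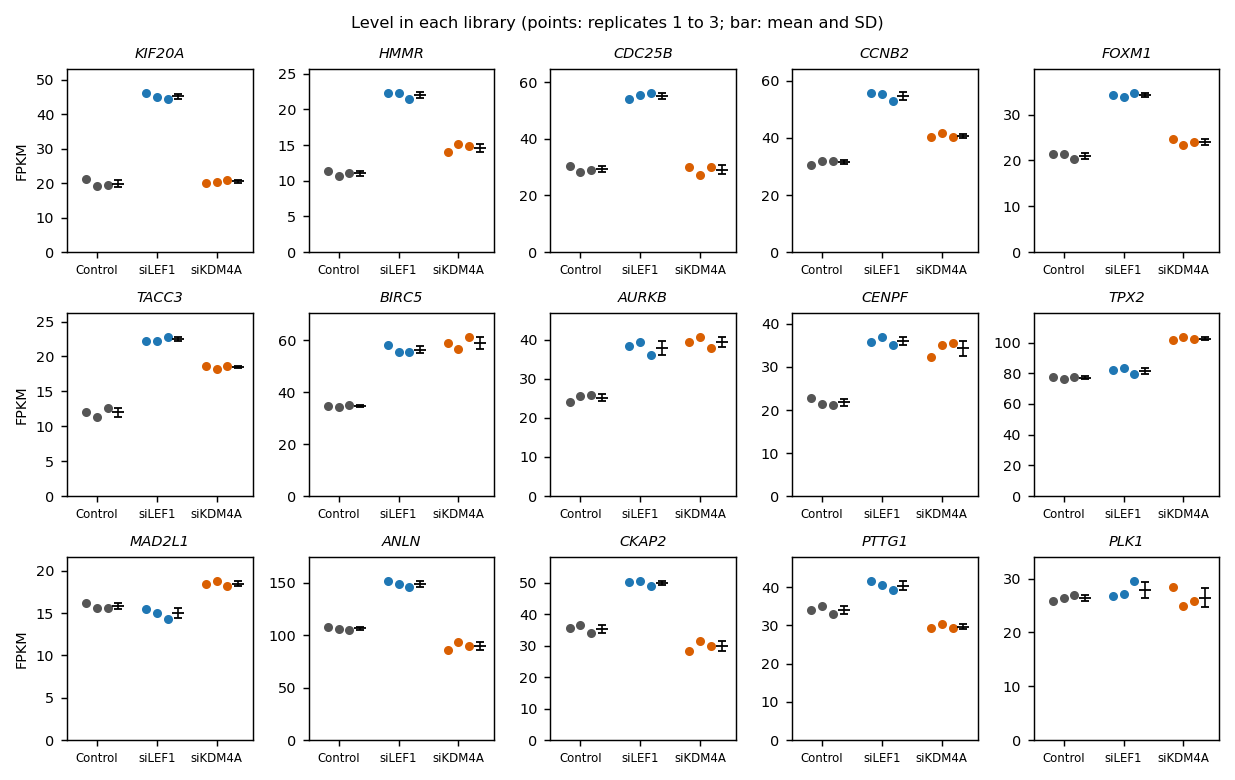
FPKM of 15 mitotic genes in each of the 9 libraries (points, replicates 1 to 3 from left to right) with the group mean and SD (black), each panel starting at 0. KIF20A and CDC25B are high in siLEF1 alone, BIRC5, AURKB and CENPF are high in both knockdowns, TPX2 and MAD2L1 are highest in siKDM4A, and ANLN, CKAP2 and PTTG1 lie above Control in siLEF1 and below it in siKDM4A.

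Cytokinesis genes build the central spindle and the contractile ring. All 4 rose in siLEF1, by 0.43 to 0.54 with a median of 0.47, none by as much as 1.5-fold. In siKDM4A 2 rose, 1 fell and 1 did not pass, and all 4 were lower there than in siLEF1.

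ANLN, the ring scaffold anillin and the most abundant of the 4, was at 108.1, 106.4 and 105.1 FPKM in Control, 151.8, 149.5 and 145.9 FPKM in siLEF1 and 86.4, 93.4 and 90.1 FPKM in siKDM4A. The groups were far apart, siLEF1 above and siKDM4A below all Control libraries. It rose by 0.48 ± 0.024 (SE, limma adjusted p = 2.27e-05) in siLEF1, fell in siKDM4A with a log2 fold change of -0.24 ± 0.033 (adjusted p = 0.00161), and was 1.66-fold lower in siKDM4A than in siLEF1 (adjusted p = 1.28e-05). ECT2, the exchange factor that activates RhoA at the midzone, rose by 0.45 in siLEF1, had -0.08 in siKDM4A and differed directly by -0.53. RACGAP1, a subunit of centralspindlin, rose by 0.54 and 0.21, and PRC1, the midzone bundler, by 0.43 and 0.25. Of the PRC1 exonic bases, 57.6% are shared with a read-through gene that was not analysed here.

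Condensin and the other mitotic chromosome genes fold and coat chromosomes. In siLEF1, 5 of 8 rose, with a median of 0.29, the lowest of all roles. In siKDM4A 3 rose, 1 fell and 4 did not pass, with a median of -0.03.

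Of the 4 condensin subunits listed, 1 passed the test against Control, in both knockdowns, and 3 passed between the knockdowns. NCAPD2, a regulatory subunit of condensin I, rose by 0.60 ± 0.024 (SE, limma adjusted p = 1.02e-05) in siLEF1 and 0.33 ± 0.024 (adjusted p = 1.12e-04) in siKDM4A. SMC2 and SMC4, the ATPases, had -0.10 and 0.14 in siLEF1 and -0.07 and -0.06 in siKDM4A, none of which passed. NCAPG, the other condensin I subunit listed, had 0.23 and -0.04, which did not pass either, although its value in siLEF1 passed in 5 of 15 alternatives. Directly, NCAPD2, NCAPG and SMC4 were lower in siKDM4A than in siLEF1, with differences of -0.28, -0.27 and -0.20 (limma, adjusted p = 2.29e-04, 0.0186 and 0.0411), and SMC2 had 0.03. These direct calls held in 15 of 15 alternatives for NCAPD2, 11 for NCAPG and only 6 for SMC4. In siLEF1 against Control, SMC4 stayed uncalled in 11 of 15 and SMC2 in 12. On the opposite strand, 33.1% of the NCAPG exonic bases are shared with LCORL and 18.5% of those of SMC4 with TRIM59.

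TOP2A, the topoisomerase that untangles sister chromatids, was at 71.1, 67.3 and 70.1 FPKM in Control, 89.1, 88.0 and 86.1 FPKM in siLEF1 and 60.5, 62.5 and 62.3 FPKM in siKDM4A. It was above Control in all siLEF1 libraries and below it in all siKDM4A libraries. It rose by 0.34 ± 0.028 (SE, limma adjusted p = 2.09e-04), fell in siKDM4A with a log2 fold change of -0.17 ± 0.03 (adjusted p = 0.00513), and differed directly by -0.51 (adjusted p = 1.59e-05). MKI67, the chromosome surface protein Ki-67, was at 51.7, 48.4 and 48.7 FPKM in Control, 59.2, 60.9 and 56.8 FPKM in siLEF1 and 47.2, 49.5 and 49.2 FPKM in siKDM4A. It rose by 0.25 ± 0.038 (SE, limma adjusted p = 0.00271) in siLEF1 and overlapped with Control in siKDM4A, at -0.03 ± 0.036 (adjusted p = 0.593).

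HMGB2, a chromatin protein and the highest of this role in Control, was at 80.6, 79.0 and 76.4 FPKM in Control, 105.3, 104.7 and 97.8 FPKM in siLEF1 and 110.7, 112.5 and 110.02 FPKM in siKDM4A. Both knockdowns stood above Control, and siKDM4A above siLEF1. It rose by 0.38 ± 0.036 (SE) and 0.50 ± 0.027 with adjusted p of 3.42e-04 and 3.69e-05 by limma, and the direct difference was 0.12 (adjusted p = 0.0309). CDCA2, which recruits a phosphatase to anaphase chromatin, rose by 0.54 and 0.45.

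FOXM1, the transcription factor of late G2 genes, was at 21.5, 21.4 and 20.3 FPKM in Control, 34.4, 33.8 and 34.7 FPKM in siLEF1 and 24.7, 23.4 and 24.0 FPKM in siKDM4A. The groups were stepped without overlap, Control lowest and siLEF1 highest. FOXM1 rose by 0.70 ± 0.031 (SE), 1.63-fold, in siLEF1 (limma, adjusted p = 1.52e-05) and by 0.19 ± 0.036 in siKDM4A (adjusted p = 0.00697), and differed directly by -0.51 ± 0.029 (adjusted p = 3.17e-05). ITFG2 on the opposite strand shares 15.9% of its exonic bases.

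**Figure D4:**
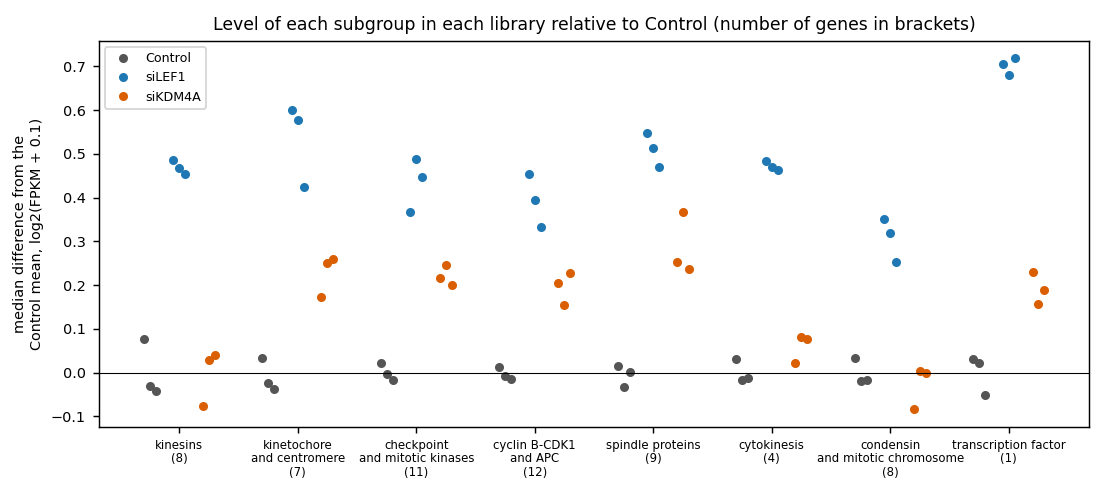
For each role (number of genes in brackets) and each library, the median over its genes of the difference from the gene's Control mean on the log2(FPKM + 0.1) scale. The siLEF1 libraries lie above Control in every role. The siKDM4A libraries lie between them for kinetochore, checkpoint, cyclin and spindle genes and for FOXM1, and around 0 for kinesins (-0.08 to 0.04) and condensin and mitotic chromosome genes (-0.08 to 0.00).

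By role, the median direct differences between the knockdowns on the log2 scale were -0.43 for both kinesins and cytokinesis genes, -0.36 for kinetochore and centromere genes, -0.31 for the cyclin B-CDK1 system and for spindle proteins, -0.23 for condensin and mitotic chromosome genes, and -0.08 for checkpoint and kinase genes. These medians describe the genes listed and were not tested against each other. The background shares given above for all genes stand beside each count, but they include many genes at lower levels than the mitotic genes.

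A list of 79 other mitotic genes, among them more subunits of the anaphase-promoting complex, the inner kinetochore and cohesin was described beside them. In siLEF1, 46 rose and 10 fell at any fold, with a median of 0.22. In siKDM4A 34 rose and 8 fell, with a median of 0.14, and between the knockdowns 30 were lower and 12 higher in siKDM4A, with a median of -0.08. ANAPC1, the largest subunit of the anaphase-promoting complex, fell in siLEF1 from 8.02 ± 0.20 to 3.00 ± 0.097 FPKM (SD, n = 3), that is, it fell by 1.39 on the log2 scale (limma, adjusted p = 8.36e-06), and was higher in siKDM4A by 1.26. ANAPC1 has near-identical copies in the genome among which reads could be split, so its value is uncertain. ZW10, a kinetochore protein of the checkpoint, rose from 3.93 ± 0.49 to 8.86 ± 0.46 FPKM (SD, n = 3) in siLEF1, by 1.16 (adjusted p = 0.000166).

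Genes of G1/S and DNA replication act one phase earlier in the cycle. Of 52, 12 rose and 15 fell in siLEF1 at any fold, with a median of -0.07, whereas in siKDM4A 33 rose and 5 fell, with a median of 0.23. In the direct comparison 35 were higher and 3 lower in siKDM4A, with a median of 0.25, the opposite direction to the mitotic genes. CCNE1, cyclin E1, which drives entry into S phase, fell in siLEF1 from 8.76 ± 0.51 to 3.83 ± 0.39 FPKM (SD, n = 3), that is, it decreased by 1.18 on the log2 scale (limma, adjusted p = 0.000111), and stood at 7.75 ± 0.28 FPKM in siKDM4A, 2.03 times the siLEF1 mean (adjusted p = 0.000133). RFC4, a subunit of the clamp loader, was at 10.2 ± 0.38 FPKM in siLEF1 and 18.9 ± 1.4 FPKM in siKDM4A (SD, n = 3), a difference of 0.89 (adjusted p = 6.52e-05).

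Of 17 genes of the DREAM and MuvB complexes and their partner factors, 4 rose and 6 fell in siLEF1 at any fold (median -0.15), 5 rose and 3 fell in siKDM4A (median 0.00), and 6 were higher and 4 lower in siKDM4A than in siLEF1 (median 0.08).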

How the data were processed

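RNA-seq of CAL-27 cells was analysed in 9 libraries, 3 per group, grouped by the labelled treatment. The study describes the samples as independent, and whether that means separate cultures is not stated, so p-values measure the spread between these libraries. The authors deposited FPKM values per gene, scaled to gene length and library reads. Per the submitters' processing notes, Trimmomatic, HISAT2, Cufflinks and HTSeq were used with hg38, without versions or roles.

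Each comparison was fitted in R 4.3.3 with limma 3.58.1 (lmFit, eBayes with a trend) on log2(FPKM + 0.1), for genes averaging 0.1 FPKM or more in the libraries compared, with Benjamini-Hochberg adjustment over all genes tested. Genes were called at an adjusted p below 0.05, alone or with a fold change above 1.5. Fold changes on this scale understate those of low genes. Whole reads (within 0.02 of an integer) were recovered from FPKM steps for 100% of values above 0 and used in an alternative fit with voom. A floor of 3 reads in a 1 kb gene is 0.175 to 0.197 FPKM. Replicate libraries differed by more than sampling noise (chi-square per gene 2.00 to 3.53). Positions came from GENCODE release 29 and promoters from RefSeq. By these positions 24 mitotic genes share exonic bases with another gene, and 7 share over 10% of them, PLK1 and BUB1B included. The fit was tested on simulated data.

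The genes, their roles and the comparison lists were chosen with earlier results of these data known. All 60 genes could be named. Values in every library were given for the 5 largest rises and 3 largest falls of each comparison past an adjusted p of 0.05, the highest Control gene of each role, and FOXM1, CDK1, CCNB1, PLK1, AURKA, TOP2A and MKI67. Of the other lists, the 3 largest changes past both thresholds in siLEF1 against Control and between the knockdowns were named, with a mean of at least 1 FPKM. Alternatives covered pseudocounts, filters, scaling, the fit, thresholds and single libraries left out. Protein identity of paralogs was not analysed here.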

Additional observations from a re-analysis of the deposited data

Results flagged for a closer look

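In 5 genes the knockdowns moved the level in opposite directions, each past an adjusted p of 0.05 with limma. A pass in the direct test between the knockdowns was required for a gene to be listed here, so it adds no separate support. The 5 genes were raised in siLEF1 and lowered in siKDM4A. Every siLEF1 library stood above every Control library and every siKDM4A library below. The same pattern of calls was found in 494 of 19794 genes tested in all 3 comparisons (2.5%), and the 5 are 8.33% of the 60 genes. The 19794 genes were not matched to the mitotic genes by level. Falls alone in siKDM4A were met in 18.3% of all genes. The direct log2 difference, siKDM4A against siLEF1, was -0.73 for CKAP2 (spindle pole protein), -0.73 for ANLN (anillin), -0.51 for TOP2A (topoisomerase II alpha), -0.44 for PTTG1 (securin) and -0.44 for KIF18A (kinesin). The 2 changes against Control share the Control libraries, and the direct differences do not use them. The fall of KIF18A in siKDM4A (-0.18) did not pass in 7 of 15 alternatives, and that of TOP2A (-0.17) did not pass in 1 of 15 (eBayes without a trend). The falls of CKAP2, ANLN and PTTG1 and all 5 direct differences passed in all 15. In siKDM4A the summed squamous markers were also lower, at 474.1 to 490.6 FPKM against 1184 to 1226 FPKM in Control. Of that list 6 markers fell, SFN the most in FPKM (658.0 to 239.8), while EPCAM (73.5 to 111.3 FPKM) and CDH1 (59.4 to 65.1 FPKM) rose, and their part in these values was not tested.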

How the results depend on the processing

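In siLEF1 against Control, 18 genes rose past both thresholds. The number was 1 with a fold change above 2 and 7 with treat, the test against 1.5-fold itself. The genes called in all went from 2538 to 1405 with a pseudocount of 1, 1070 above 2-fold and 566 with treat. In siKDM4A against Control, the 4 became 0 and 1 under the last 2 settings, and 2556 genes became 1462, 1079 and 586. Between the knockdowns, the 8 became 1 and 3, and 3289 genes became 1841, 1493 and 925. At any fold, 1 mitotic gene (SMC2) was lowered in siLEF1 with a filter of 1 FPKM and with voom, and 3 rather than 5 were lowered in siKDM4A without a trend. Causes beyond the stricter limits themselves were not tested.

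Scaling the libraries to a common median ratio moved the median log2 fold change of the 60 genes to 0.22 in siKDM4A and to -0.23 between the knockdowns, where 5 genes were lowered past both thresholds. It turned the sign of genes near 0 that were not called. In siKDM4A these were KIF11 (0.0194), KIF14 (0.014), CDC20 (0.0283), CDC25B (0.0533), CKAP5 (0.0286), NCAPG (0.0203) and MKI67 (0.0303), and between the knockdowns AURKA (0.0267) and CDCA8 (0.0241). With voom, PLK1 was at -0.000101 in siKDM4A.

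Leaving out 1 library at a time gave 15 to 19 raised genes past both thresholds in siLEF1, 3 to 4 in siKDM4A and 6 to 9 lowered between the knockdowns. At any fold, 0 to 1 were lowered in siLEF1, where SMC2 was called without siLEF1 replicate 2. The medians stayed at 0.45 to 0.50, 0.15 to 0.18 and -0.30 to -0.28. Uncalled genes that changed sign in siKDM4A were PLK1 (-0.053 to 0.0384), CDC25B (-0.0324 to 0.0426), MKI67 (-0.0455 to 0.00156), NCAPG (-0.0691 to 0.0198), KIF20B (-0.0223 to 0.0635), KIF11 (-0.0777 to 0.0217) and KIF14 (-0.075 to 0.00595), and between the knockdowns AURKA (-0.0481 to 0.0152).

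Replicate numbers did not pair the libraries, as the 9 same-number correlations of deviations from the group means were -0.04 to 0.04. With a replicate block, 18 genes were raised past both thresholds in siLEF1, 4 in siKDM4A and 8 lowered between the knockdowns, of 2245, 2305 and 2953 genes called in all. At any fold the block left 53 raised in siLEF1, 29 raised and 4 lowered in siKDM4A, and 42 lowered and 3 raised between the knockdowns.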

Other observations

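Of the comparison lists, MYBL1, NFYC, RBBP4 and UHRF1 fell outside the rule for named genes and were chosen after their values were seen. MYBL1, a MYB family transcription factor, rose from 8.31 ± 0.40 FPKM in Control to 14.8 ± 0.13 FPKM in siLEF1 and 12.2 ± 0.21 FPKM in siKDM4A (SD, n = 3), with log2 fold changes of 0.83 and 0.55 (limma, adjusted p = 2.77e-05 and 0.000210). NFYC, a subunit of the factor that binds the NF-Y box, was at 8.499 ± 0.33 FPKM in Control, 7.92 ± 0.47 in siLEF1 and 4.88 ± 0.16 in siKDM4A (SD, n = 3). In siKDM4A it fell by 0.79 on the log2 scale (limma, adjusted p = 7.78e-05) and its log2 difference of -0.10 in siLEF1 did not pass (adjusted p = 0.231). RBBP4, a histone-binding MuvB subunit, was at 14.9 ± 0.57 FPKM in Control, 10.1 ± 0.088 in siLEF1 and 18.3 ± 0.33 in siKDM4A (SD, n = 3), with log2 fold changes of -0.56 and 0.29 that both passed (limma, adjusted p = 8.50e-05 and 0.00141). UHRF1, a chromatin protein of the replication list, went from 41.8 ± 1.9 to 24.1 ± 0.23 FPKM (SD, n = 3) in siLEF1, where it fell by 0.79 on the log2 scale (limma, adjusted p = 1.70e-05), and overlapped with Control in siKDM4A.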
